A study of Mus musculus with 2 samples.

Results

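Mir183, Mir96 and Mir182, the 3 genes of the miR-183 cluster, and the single genes Mir205 and Mir203 are microRNA (miRNA) genes known from epithelia and sense organs. They were chosen by gene symbol, and all 5 were found among the 1973 miRNA genes counted. The data are miRNA-seq, which counts reads of the RNA fraction under 30 nt, of mouse lung at embryonic day 14.5 (E14.5), strain B6NCrl, a stage at which the airway epithelium branches into surrounding mesenchyme. The 2 libraries form 1 group of biological replicates with no treatment, genotype or stage contrast. Per the labels each comes from the lung of 1 pup, although the sex is given as pooled. The tissues were collected on different days, so differences between replicates and between days cannot be told apart. The depth on the strand of the miRNA genes was 5128214 counts in replicate 1 and 2332032 in replicate 2. Levels are in CPM, the counts of a gene per 1000000 such counts, where a single count is worth 0.195 CPM in the former and 0.429 CPM in the latter.

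A miRNA is cut from a hairpin precursor, and 1 of the 2 arms of the hairpin usually guides the silencing of messenger RNAs. The guide finds its targets mainly through its seed, the bases 2 to 8 from its 5′ end. The miR-183 cluster is made from a shared primary transcript and is best known from photoreceptors, hair cells and other sensory cells, where changes in the seed of miR-96 cause hearing loss. miR-205 and miR-203 are abundant in stratified epithelia such as skin. miR-205 acts with the miR-200 family on the mesenchymal regulators Zeb1 and Zeb2, and miR-203 restrains the basal cell factor p63. Reads were counted per hairpin gene, so the 2 arms of a gene are not separated in these counts.

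The mature sequences are shown because the cluster members are alike in sequence while their counts differ. For each gene the arm usually taken as the guide is printed 5′ to 3′, with the seed in capitals, from RefSeq (GRCm38.p6).
miR-183-5p: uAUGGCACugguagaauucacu
miR-96-5p: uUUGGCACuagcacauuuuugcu
miR-182-5p: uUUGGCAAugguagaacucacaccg
miR-205-5p: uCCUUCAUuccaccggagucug
miR-203-3p: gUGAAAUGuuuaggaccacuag
miR-183-5p and miR-182-5p were identical at 18 of 22 positions counted from the 5′ end, and A2U, C8A, U17C and U22A lead from the former to the latter. miR-96-5p and miR-182-5p shared bases 2 to 7 and differed in the seed by C8A. miR-183-5p and miR-96-5p differed in the seed by A2U. The seeds of miR-205-5p and miR-203-3p matched each other at 0 of 7 positions and those of the cluster at no more than 2.

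In searches for exact matches among hairpins and transcripts, the members stood apart from other genes in sequence, except for the host of Mir205. Matches with mismatches and matches elsewhere in the genome were not searched. No other RefSeq hairpin shared 20 nt with any of the 5 hairpins, and the longest run shared with another hairpin was 10 nt for each of the cluster members, 14 nt for Mir205 and 11 nt for Mir203. miR-183-5p and miR-182-5p shared at most 8 bases in a row. Outside its own gene, a mature arm of a member occurred among GENCODE transcripts only for Mir205, whose 2 arms lie in its host transcript. Loss of reads to multimapping, which took 32.9% and 33.1% of all reads in the 2 libraries and was assigned to no gene, was not measured per gene.

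Among RefSeq miRNAs, 1 other had the guide seed of a member, miR-1271-5p, which shares bases 2 to 8 with miR-96-5p.
miR-1271-5p: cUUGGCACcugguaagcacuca
Its hairpin gene, Gm24195 in the annotation, had 0 counts in both libraries, which allows up to 0.585 CPM in replicate 1 and 1.29 CPM in replicate 2. That floor of 3 counts, like the intervals given here, covers counting error only. On the opposite arm, miR-96-3p shares its seed with miR-3475-5p, whose gene Mir3475 stood at 4.68 and 6.86 CPM.

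The cluster lies on chromosome 6 of mm10, minus strand, with Mir183 at chr6:30169668-30169737, Mir96 at chr6:30169446-30169551 and Mir182 at chr6:30165918-30165992. The hairpins are transcribed in that order, with 116 bases between Mir183 and Mir96 and 3453 bases between Mir96 and Mir182. None of the 3 overlaps another annotated gene. The nearest genes are the lincRNA Rncr4, 3156 bases from Mir183 on the plus strand, and Nrf1, 12460 bases from Mir182 on the plus strand. Mir205 lies at chr1:193507463-193507530, minus strand, within an exon of the lincRNA 4631405K08Rik on the same strand. Mir203 lies at chr12:112130880-112130955, plus strand, between Aspg, 3321 bases away, and Kif26a, 15253 bases away.

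All 5 members were well measured in E14.5 lung, and Mir182 was the most abundant in both libraries. Mir182 had 25953 counts in replicate 1 and 18299 in replicate 2. These are levels of 5061 CPM (95% exact Clopper-Pearson interval 5000 to 5123) and 7847 CPM (7734 to 7961). It ranked 41 among all genes in replicate 1 and 28 in replicate 2. Its mean of 6454 ± 1970 CPM (SD, n = 2) carried the widest spread of the 5, a coefficient of variation of 30.5%.

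Mir183 came next and was nearly equal in the libraries. It had 14767 counts (2880 CPM, interval 2833 to 2926) in replicate 1 and 6778 counts (2906 CPM, interval 2838 to 2976) in replicate 2, a mean of 2893 ± 19.03 CPM. Mir96, whose guide is known for its role in the inner ear, was the lowest of the 5, with 7418 counts (1447 CPM, interval 1414 to 1480) and 3643 counts (1562 CPM, interval 1512 to 1614). Its mean was 1504 ± 81.8 CPM (SD, n = 2).

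The 2 stratified epithelium miRNAs lay between Mir183 and Mir96. Mir205 had 11374 counts (2218 CPM, interval 2177 to 2259) in replicate 1 and 5928 counts (2542 CPM, interval 2478 to 2607) in replicate 2, a mean of 2380 ± 229 CPM. Mir203 had 11100 counts (2164 CPM, interval 2124 to 2205) and 4748 counts (2036 CPM, interval 1979 to 2095), a mean of 2100 ± 90.9 CPM. The intervals of Mir205 and Mir203 overlapped in replicate 1 and were apart in replicate 2.

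The order Mir182, Mir183, Mir205, Mir203, Mir96 was the same in both libraries. The gap between Mir205 and Mir203 was of the size of their spread, with a ratio of 1.02 (interval 0.998 to 1.05) in replicate 1 and 1.25 (1.20 to 1.30) in replicate 2. Mir183 exceeded Mir205 by 1.30-fold and 1.14-fold, and Mir203 exceeded Mir96 by 1.496-fold and 1.303-fold. Mir182 exceeded Mir205 by 2.28-fold and 3.09-fold. These are ratios of reads. The counts are not divided by length, since a miRNA read spans a whole mature arm, and how readily each sequence entered a library was not measured. With multimapping and other unassigned mapped reads in the denominator the means were 3736, 1673, 1377, 1215 and 870 CPM, in the same order of genes.

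**Figure D1:**
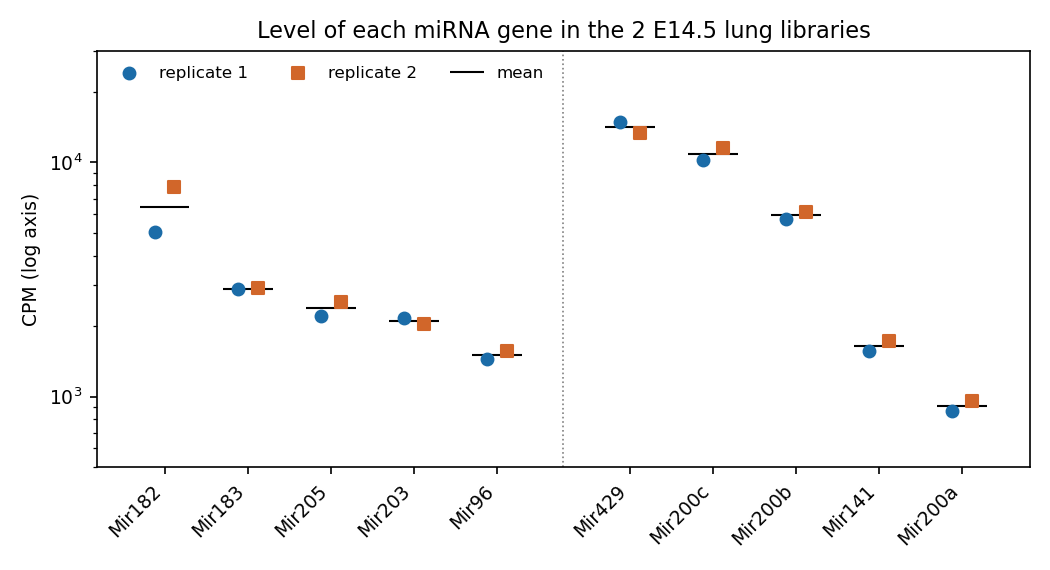
CPM (log axis) of the 5 members, left of the dotted line, and of the 5 genes of the miR-200 family, right of it, in each library, with the mean as a line. Mir182 is the highest member in both libraries and has the widest gap between them (5061 and 7847 CPM), while the 2 points of Mir183 nearly coincide.

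Within the miR-183 cluster, Mir182 held more than the other members together. It made up 53.9% of the cluster's counts in replicate 1 (95% exact Clopper-Pearson interval 53.5 to 54.4) and 63.7% in replicate 2 (63.2 to 64.3), a mean of 58.8% ± 6.93 (SD, n = 2). Mir183 held 30.7% (30.3 to 31.1) and 23.6% (23.1 to 24.1). Mir96 held 15.4% (15.1 to 15.7) and 12.7% (12.3 to 13.1). For each of the 3 genes the intervals of the libraries do not overlap, so the shares differed by more than counting error.

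**Figure D2:**
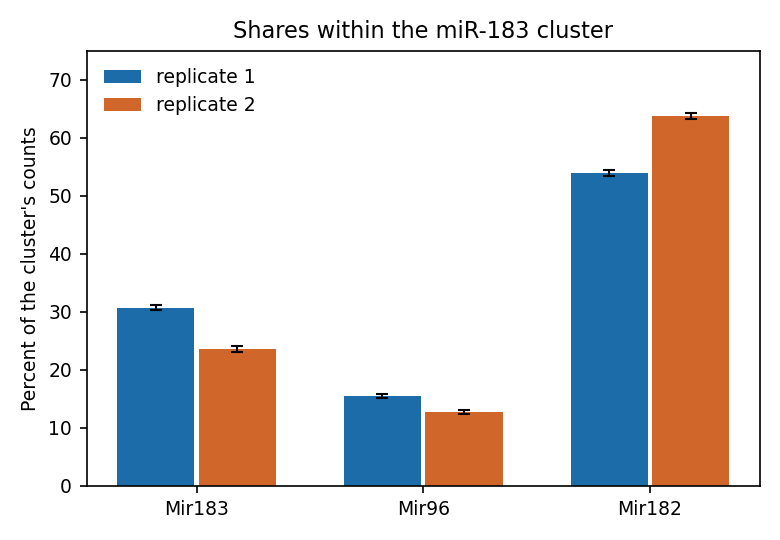
Percent of the cluster's counts held by each of its 3 genes in each library, with 95% exact intervals as error bars. Mir182 holds 53.9% and 63.7%, and both other genes hold less in replicate 2 than in replicate 1.

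Mir183 and Mir96, the 2 neighbouring hairpins, kept nearly the same ratio to each other, while Mir182 moved against both. Mir183 exceeded Mir96 by 1.99-fold in replicate 1 (interval 1.94 to 2.05) and 1.86-fold in replicate 2 (1.79 to 1.94). Mir182 exceeded Mir183 by 1.76-fold (1.72 to 1.79) and 2.70-fold (2.63 to 2.78), and Mir96 by 3.50-fold (3.41 to 3.59) and 5.02-fold (4.85 to 5.21). On the log2 scale the mean ratio of Mir183 to Mir96 was 0.94 ± 0.07 (SD, n = 2) and that of Mir182 to Mir183 was 1.12 ± 0.44. Ratios within a library do not depend on scaling between libraries.

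**Figure D3:**
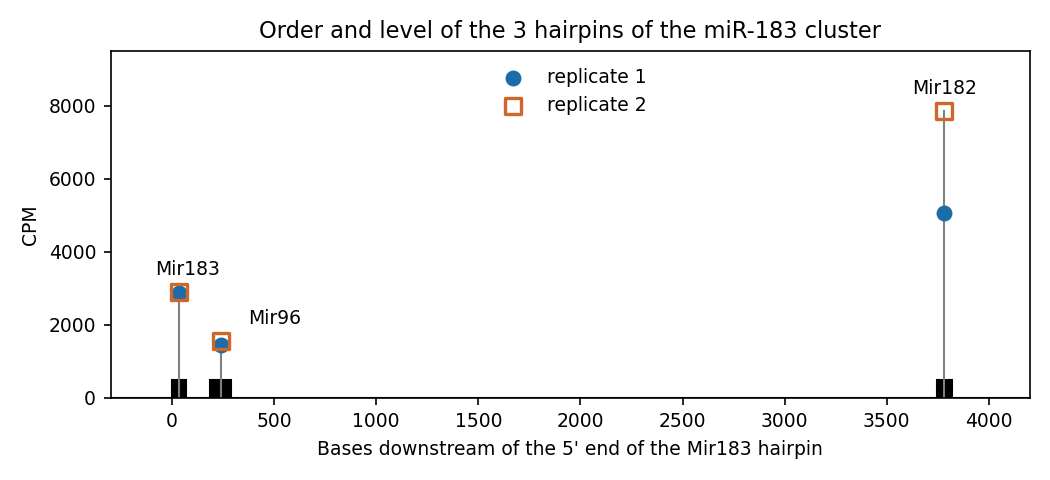
Position of the 3 hairpins (black blocks, to scale) in bases downstream of the 5′ end of Mir183, with the CPM of each gene in each library. Mir96 begins 186 bases and Mir182 begins 3745 bases downstream, and Mir182, the farthest, is the highest in both libraries.

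The members of the cluster were closer in level than those of most other miRNA clusters. Genes on the same strand with neighbours under 10 kb apart were joined, and 40 clusters had at least 2 members with at least 10 counts in both libraries. The highest member of the miR-183 cluster exceeded the lowest by 4.29-fold in mean CPM (log2 ratio 2.10, or 0.94 with neighbours under 3 kb apart, where Mir182 is not joined to the others). Of the 39 other clusters 29 had a larger ratio, and their median was 13.3-fold. Genes that share sequence with another hairpin can lose reads to multimapping, and the part of this in the ratios was not measured. Among the 19 other clusters with no measured member sharing 20 nt with another counted hairpin, a set chosen after the data had been seen, 13 had a larger ratio and the median was 7.87-fold. Low counts and a larger number of members also widen such a ratio. Of the 22 other clusters whose lowest member had at least 100 CPM, 15 had a larger ratio, with a median of 9.31-fold. Of the 5 other clusters of 3 measured members, 4 had a larger ratio, with a median of 15.5-fold. Both sets were also chosen after the data had been seen. In the miR-200 family the ratio was 15.5-fold for Mir429, Mir200b and Mir200a and 6.62-fold for Mir200c and Mir141.

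By contrast, the members of the miR-183 cluster differed from each other in how they changed between the libraries. The highest and the lowest log2 ratio of replicate 2 to replicate 1 in the cluster, those of Mir182 and Mir183, lay 0.62 apart. The median of this range was 0.41 over the 39 other clusters, and 10 of them had a wider one. Such a range grows with the number of members, and among the 5 other clusters of 3 measured members, also chosen after the data had been seen, the median was 0.50 and 1 was wider. Among the 19 other clusters without shared sequence the median was 0.24 and 2 had a wider range. These counts describe 2 libraries and were not tested.

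**Figure D4:**
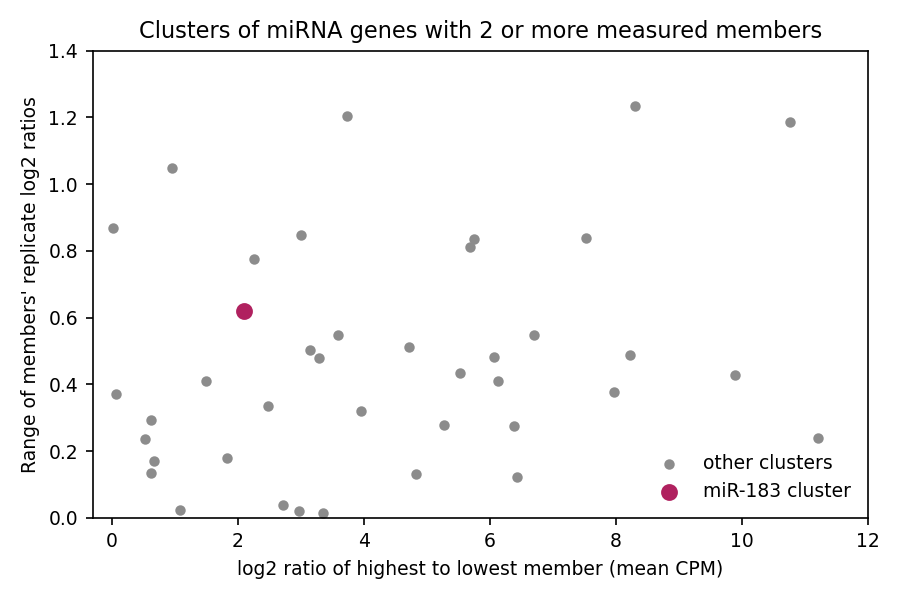
Each point is a cluster of miRNA genes, placed by the log2 ratio of its highest to its lowest member in mean CPM and by the range of its members' log2 ratios of replicate 2 to replicate 1. The miR-183 cluster sits at 2.10 and 0.62, left of most of the 39 others and in the upper part of their ranges.

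Between the replicates Mir182 differed most among the 5 members. The log2 ratio of replicate 2 to replicate 1, on CPM scaled by TMM (trimmed mean of M values) with a pseudocount of 1 CPM, was 0.54 for Mir182, a 1.46-fold higher level. Its adjusted p in an exact two-sided binomial test was too small for double precision and was recorded as 0. Mir205 was higher in replicate 2 by the same test (log2 ratio 0.11, exact binomial adjusted p = 1.47e-05) and Mir203 was lower (-0.18, exact binomial adjusted p = 5.36e-12). Mir183 was lower by TMM scaling (-0.08, exact binomial adjusted p = 0.0011), but its ratio turned to 0.013 with library totals (exact binomial adjusted p = 0.71). Mir96 did not pass by TMM scaling (0.02, exact binomial adjusted p = 0.63), while its ratio was 0.11 with library totals, where it passed (exact binomial adjusted p = 0.00055), and -0.026 with DESeq2 size factors (exact binomial adjusted p = 0.55).

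Such calls were common in these libraries. Of 404 genes tested 169 passed, 41.8% in either direction, 17.8% higher in replicate 2 and 24% higher in replicate 1 (the split was 112 higher and 65 lower with library totals). Of the 187 genes of at least 100 CPM 138 passed, 73.8%, so 4 of 5 members passing is near the share for abundant genes. The median log2 ratio of the members was 0.02, against -0.03 for all tested genes. The size of the difference of Mir182 was less common: 9 of the 187 genes of at least 100 CPM had a larger absolute log2 ratio, and the median absolute value of these genes was 0.17. The test measures reads of 2 libraries and not a condition. With the common dispersion of the libraries (0.034 from edgeR, a biological coefficient of variation of 18.3%) added through a beta-binomial test, 0 of 5 members passed and 1 of 404 genes did, 0.248%. That dispersion was estimated from the same 2 libraries, so it was fitted to the differences tested and few calls could follow. The gene that passed the beta-binomial test was Mir208a, with 1533 counts in replicate 1 and 27 in replicate 2 (log2 ratio -4.66). In that test 15 genes had an unadjusted p under 0.05, none of them a member, and the unadjusted p of Mir182 was 0.136.

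**Figure D5:**
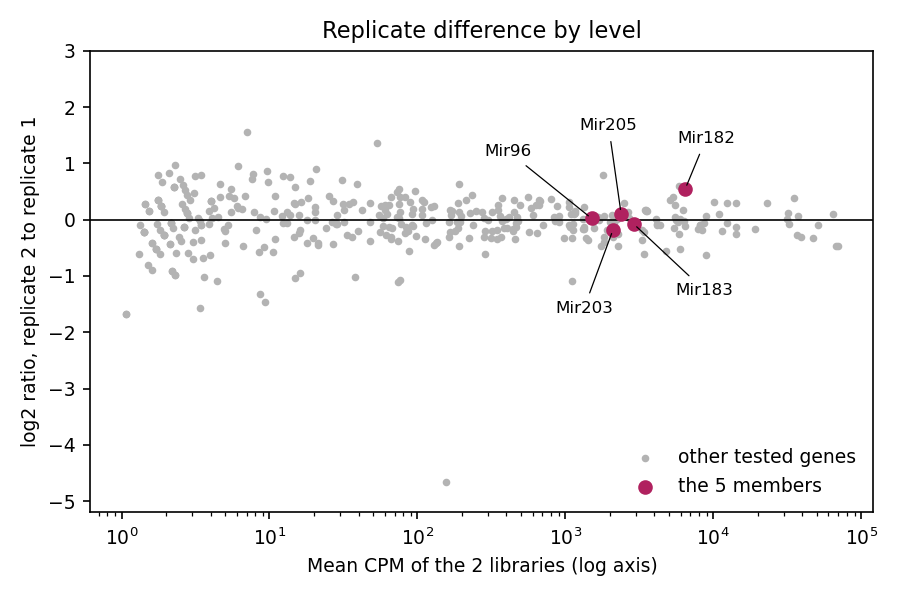
Log2 ratio of replicate 2 to replicate 1 against mean CPM (log axis) for the 404 tested genes, with the 5 members in colour. Mir182 lies at 0.54, and the other 4 members lie between -0.18 and 0.11.

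The 5 members together held less than the miR-200 family, the principal epithelial family, in both libraries. They summed to 1.38% of all gene-strand counts (95% Clopper-Pearson interval 1.37 to 1.39) in replicate 1 and to 1.69% (1.67 to 1.71) in replicate 2. The miR-200 family held 3.33% (3.31 to 3.35) and 3.37% (3.35 to 3.40). The family exceeded the members by 2.42-fold (2.40 to 2.44) in replicate 1 and 2.00-fold (1.97 to 2.02) in replicate 2, a log2 ratio of the members to the family of -1.14 ± 0.20 (SD, n = 2), or -0.66 between geometric means. The ratio was below 1 in 2 of 2 libraries and was not tested, since a two-sided sign test over the libraries could reach no less than p = 0.5 even in its exact form.

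The summed cluster differed more between the libraries than the summed single genes, through Mir182. The miR-183 cluster held 0.939% of counts in replicate 1 (0.930 to 0.947) and 1.23% in replicate 2 (1.22 to 1.25), and Mir205 and Mir203 together stood at 0.438% (0.433 to 0.444) and 0.458% (0.449 to 0.467). Mir183 (log2 ratio -0.08) and Mir96 (0.02) differed less than Mir205 (0.11) and Mir203 (-0.18), whose opposite signs offset each other in their sum. Mir182 was near Mir200b, 0.884-fold of it (0.869 to 0.899) in replicate 1 and 1.27-fold (1.25 to 1.30) in replicate 2. It exceeded Mir141 (3.24-fold and 4.55-fold) and Mir200a (5.86-fold and 8.17-fold) and lay below Mir200c (0.496-fold and 0.678-fold) and Mir429 (0.339-fold and 0.589-fold). By TMM scaling 1 of the 5 miR-200 genes passed the test as higher in replicate 2 and 1 as lower, with a median log2 ratio of 0.05. Of all tested genes 41.8% passed by that scaling. With library totals 4 of the 5 miR-200 genes passed as higher. In a whole lung, fewer cells of a type and less RNA per cell cannot be told apart.

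Markers of other cell types moved between the libraries as well. By TMM scaling 41.8% of all tested genes were called, and 73.8% of those of at least 100 CPM, so calls were common outside these lists too. The mesenchymal genes Mir214, Mir199b, Mir199a-1 and Mir199a-2 summed to 9078 CPM in replicate 1 and 10251 CPM in replicate 2, and 4 of 4 were called higher in replicate 2 by TMM scaling (3 of 4 with DESeq2 size factors). Beside Mir182, with a log2 ratio of 0.54, Mir214, which holds most of that sum, had a ratio of 0.07. Mir199b (0.26), Mir199a-2 (0.35) and Mir199a-1 (1.56, from 15 and 26 counts) had larger ratios. Of Mir199a-2 and Mir214, 1 shares 20 nt with another counted hairpin. The mesenchymal sum and ratios can thus leave out multimapping reads, which were not measured per gene. The endothelial Mir126a went from 76033 to 58438 CPM, and the 2 erythroid genes from 497 to 392 CPM. The smooth muscle pair Mir143 and Mir145a summed to 79791 and 62023 CPM. Of this pair Mir143 fell from 78321 to 60488 CPM, while Mir145a stood at 1470 and 1535 CPM. Mir145a was not called by TMM scaling, though 2 of 2 were called lower with DESeq2 size factors. Of 4 white blood cell genes tested, 1 was called higher in replicate 2 and 1 lower by TMM scaling. The genes of that list summed to 848 CPM in both libraries on the strand of the gene. That sum leaves out the locus of Mir142b, which had 0 counts on its own strand but 4187 and 1712 on the opposite strand, so its 0 is no absence of reads there. Of 9 other airway or stratified epithelium genes counted, 2 were called higher and 2 lower in replicate 2 (1 higher with DESeq2 size factors), and their sum went from 6665 to 5920 CPM, led by Mir375 (3555 and 3261 CPM). Mir449a, known from multiciliated airway cells, had the largest drop of that list, from 1477 to 735 CPM (log2 ratio -1.10, exact binomial adjusted p = 4.32e-204). Mir34c of the same list rose from 781 to 982 CPM (log2 ratio 0.24, exact binomial adjusted p = 1.34e-09). Mir34b, also of that list, stood at 35.7 and 31.3 CPM and was not called. The keratinocyte miRNA Mir31 stood at 386 and 411 CPM and the corneal and skin miRNA Mir184 at 16.6 and 15.4 CPM. With the common dispersion added, which was fitted to the same 2 libraries, 0 genes of these lists passed. The part of cell composition in the difference of Mir182 was not tested.

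Neural and retinal markers, listed because the miR-183 cluster is abundant in sensory neurons and retina, were low. Their 11 counted genes summed to 618 and 628 CPM, led by Mir132 at 365 and 384 CPM. None of the 5 tested was called, against 41.8% of all tested genes by TMM scaling. Mir124a-1, Mir124a-2, Mir124a-3 and Mir9-2 were at 0 in both libraries, but these genes occur in several copies and their reads may count as multimapping. Mir204 stood at 89.5 and 82.3 CPM, and Mir211 had 2 counts and 0.

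The genes most like each member in level over the 2 libraries were taken by the Euclidean distance of log2(CPM + 1). They were Mir382 and Mir15b for Mir183 (distances 0.08 and 0.08), Mir145a and Mir154 for Mir96 (0.03 and 0.13), and Mirlet7f-2 and Mir425 for Mir205 (0.15 and 0.15). For Mir203 they were Mir181a-1 and Mir381 (0.08 and 0.09). Mir182 had the farthest neighbours, Mir541 at 0.20 (4508 and 7300 CPM) and Mir130b at 0.26 (5666 and 6794 CPM). With 2 libraries this measures level and the replicate difference only.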

How the data were processed

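The authors deposited whole-number counts per miRNA gene for each library, and the deposited readme names mm10 and GENCODE M4. Aligner and counter were not given in the sources used here. On the values, the 3 columns hold counts on both strands, on the strand of the gene and on the opposite strand, and the second was used. The 4 summary entries (unmapped, multimapping, no feature, ambiguous), 49.7% and 48.7% of reads, stayed out of library sizes and tests. Symbols and coordinates came from GENCODE M21, which matched 1894 of 1973 identifiers, and sequences from RefSeq, which held all 5 members. Genes with at least 10 counts over both libraries were tested with an exact binomial test on TMM-scaled sizes, with Benjamini-Hochberg adjustment over all of them at 0.05. The tests and intervals were tried on simulated counts with known scaling, for the binomial test without added spread between libraries. TMM scaling was not simulated.

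The members, marker lists and tests were chosen with earlier results of these data known. Genes named are the members, the 2 nearest genes to each in level, genes sharing a seed, the highest gene of each marker list and the neighbouring or host genes of a member. Mir199b, Mir199a-1, Mir199a-2, Mir31, Mir184, Mir204, Mir211, Mir449a, Mir34c, Mir34b, Mir142b, Mir124a-1, Mir124a-2, Mir124a-3, Mir9-2, Mir9-3, Mir128-1, Mir128-2, Mir208a and the single miR-200 genes were named in addition, after their values had been seen. Alternatives were other scalings, count filters, pseudocounts, denominators, the column without regard to strand, each replicate left out, other ways to combine lists and other cluster distances. TMM factors and the dispersion came from edgeR 4.0.16, and other size factors from DESeq2 1.42.0, both in R 4.3.3. Tests were run in Python 3.11.15 (scipy 1.17.1).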

Additional observations from a re-analysis of the deposited data

Results flagged for a closer look

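Counts on the strand opposite to a member, which enter no comparison, passed the 3 counts that a count of 0 allows at 2 loci. At Mir203 they numbered 48 in replicate 1 and 29 in replicate 2, which is 0.431% and 0.607% of all counts at the locus. Of 320 genes that reached 10 counts in each library, 288 had no opposite-strand count and 6 had a higher share than Mir203. RefSeq places 2 mature arms of miR-203b on the minus strand inside the Mir203 hairpin (GRCm38.p6), and they are printed because they are annotated on the strand of these counts.
miR-203b-5p: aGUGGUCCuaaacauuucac
miR-203b-3p: uUGAACUGucaagaaccacugg
All 20 bases of miR-203b-5p are the reverse complement of part of miR-203-3p, and 20 of the 22 bases of miR-203b-3p that of miR-203-5p. Whether the opposite-strand counts are miR-203b was not tested, since the files give no read positions within a locus. At Mir183 there were 5 opposite-strand counts in replicate 1 and 0 in replicate 2.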

How the results depend on the processing

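The share of Mir182 in its cluster was 58.8% without regard to strand and 57.6% with summed counts of both libraries. A share from summed counts or from 1 library cannot leave the range of the 2 libraries, so these alternatives are no test of it. The percent of other clusters with a larger spread stayed between 68.2% and 80% under the alternatives run. The log2 ratio of the members to the miR-200 family moved to -0.66 with geometric means, in which each gene weighs the same. The spread of the cluster fell to 0.94 on the log2 scale with neighbours under 3 kb apart, where Mir182 is no longer joined to Mir183 and Mir96. With the common dispersion added, genes past the threshold went from 169 to 1 and members from 4 to 0, but that dispersion was fitted to the same 2 libraries. The replicate log2 ratio of Mir183 reversed to 0.013 with library totals and that of Mir96 to -0.026 with DESeq2 size factors, since these scalings shift all ratios (TMM by -0.09 and DESeq2 by -0.14 relative to library totals). The DESeq2 size factors, 1.414 and 0.7071, were taken without a count filter. Genes of few counts, whose ratios are often tied, thus weighed as much as abundant ones in them. CPM levels fell with multimapping and other unassigned mapped reads in the denominator, from 6454 to 3736 for Mir182 and from 1504 to 870 for Mir96. Leaving out a replicate gave 53.9% to 63.7% for the share of Mir182, -1.27 to -0.998 for the log2 ratio to the miR-200 family and 1.81 to 2.33 for the spread of the cluster, and leaves no test of the replicate difference. No paired analysis was possible because the study has 1 group.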
